A study of Mus musculus with 11 samples.

Results

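The cytosolic ribosomal protein genes were examined in mouse embryonic stem (ES) cells kept in 3 media. Members were the protein-coding RefSeq genes with a symbol of Rpl or Rps and a number (with an optional a, x or y), Rplp0, Rplp1, Rplp2 and Rpsa. This gave 76 genes, 46 of the large and 30 of the small subunit, among 20964 genes named on the array. All but Rpl37 had a probe named here, so 75 members (45 large, 30 small) stood among the 16279 genes tested. The rule rests on symbols and not on measured values, but it was set with earlier results of these data known.

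The ES cells were of the lines E14, HVJu5.1 and HVJu9.3, all of 129/Ola background, unsorted, and kept for a minimum of 3 passages in their medium. There were 3 arrays for serum/LIF, 5 for 2i/LIF and 3 for KOSR/LIF. Leukaemia inhibitory factor (LIF) was in every medium, so no group lacked it. 2i adds an inhibitor of MEK and one of GSK3, and KOSR is a defined serum replacement. Titles and source names gave different lines for 2i/LIF replicates 1 to 4. The labels do not state that repeated samples were grown as separate cultures, so p-values measure only how these samples spread.

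Each ribosome holds 1 copy of nearly every ribosomal protein, and cells keep their synthesis in step with rRNA made by RNA polymerase I. Transcripts of these genes are abundant in growing cells, and most begin with a 5′ terminal oligopyrimidine (TOP) tract through which mTOR and LARP1 set their translation. Myc family factors are known to raise transcription of ribosomal protein and ribosome assembly genes, and ES cells are known for a high Myc level in serum and a low one in 2i.

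With no batch term in the model, no ribosomal protein gene passed the test in 2i/LIF against serum/LIF, KOSR/LIF against serum/LIF or 2i/LIF against KOSR/LIF. Of all genes tested, 16.7%, 4.58% and 14.7% passed in these comparisons. The largest mean difference among the members was 0.81 on the log2 scale. With the scan day as a block, Rps24 passed in the first comparison (0.62 higher) and Rpl36a in the last (0.64 higher). Neither passed with that block under quantile or cyclic loess scaling, and the other Rps24 probes were not higher in 2i/LIF on average. Myc, in the same samples, fell by 3.57 on the log2 scale from serum/LIF to 2i/LIF, where its signal was low. Outside the set, the paralogs Rpl10l and Rpl39l were 5.18-fold and 3.50-fold higher in 2i/LIF than in serum/LIF.

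Promoter sequence from RefSeq (GRCm38.p6) was given for 56 of the 76 members, with 66 transcription starts. A run of at least 8 pyrimidines (C or T, sense strand) that covered the start base or the base beside it was found at 19 of the 66 starts (28.8%). It was found at 5.97% of all 32851 starts in the table. Both are counts of letters at annotated starts, which can lie a few bases from the start used in these cells. The windows below run from 40 bases before to 20 bases after the annotated start, 5′ to 3′, with the pyrimidine run at the start in capitals. Rps24 and Rps2 are shown because they gave the largest mean differences upward and downward against serum/LIF, Rpl7a because it had the longest run (21 bases), and Rpl10l and Rpl39l because they are the paralogs that changed most.
Rps24, chr14:24490638-24490697, plus strand: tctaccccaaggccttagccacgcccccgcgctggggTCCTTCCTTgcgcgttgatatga
Rps2, chr17:24720023-24720082, plus strand: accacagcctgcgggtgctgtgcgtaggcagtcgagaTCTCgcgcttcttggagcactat
Rpl7a, chr2:26910767-26910826, plus strand: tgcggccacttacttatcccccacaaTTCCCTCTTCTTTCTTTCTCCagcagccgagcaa
Rpl10l, chr12:66284382-66284441, minus strand: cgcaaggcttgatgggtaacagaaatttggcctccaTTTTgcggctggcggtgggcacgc
Rpl39l, chr16:10170188-10170247, plus strand: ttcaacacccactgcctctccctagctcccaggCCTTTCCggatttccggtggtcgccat
The runs were 9 bases in Rps24, 4 in Rps2, 4 in Rpl10l and 7 in Rpl39l. Rps24 and Rpl7a thus carried a TOP-like run of at least 8 and the other 3 did not at these annotated starts. A second RefSeq start of Rps24, with the window chr14:24490713-24490772, held a run of 2 bases.

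Over the whole 300-base window (250 before to 50 after the start, either strand, overlaps between motifs not removed), the ETS core CCGGAAG was found at 36.4% of member starts and 8.86% of all starts. The GC box GGGCGG was found at 60.6% against 35.7%, and the YY1 core AAGATGG at 16.7% against 6.34%. The E-box CACGTG, which Myc binds, was found at 12.1% against 7.15%, and TATAAA at 9.09% against 13.6%. Large and small subunit starts held a pyrimidine run in 30% and 26.9%, the ETS core in 35% and 38.5% and the GC box in 65% and 53.8%. They held the YY1 core in 15% and 19.2% and TATAAA in 10% and 7.69%. The E-box was at 7 of 40 large and 1 of 26 small subunit starts (17.5% and 3.85%), a difference that was not tested. A match of letters was not tested for binding or use.

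Before the results, the arrays have to be set out, because KOSR/LIF replicate 3 stands apart. Its 75th percentile of intensity was 65.3 against 176 to 538 on the others, and 43.7% of its probes were well above background against 53.7% to 72.6%. Pou5f1, an ES cell marker, was at 3.69 (log2 level) on that array and at 5.65 to 6.27 on the other 10. In the value table that the authors deposited beside the scanner files, the column for that sample had Pou5f1 at 13.94, within the 13.93 to 14.44 of the other columns. That column correlated with its own scanner file at r = 0.917 (log2, across probes) and at 0.974 with the file of KOSR/LIF replicate 1. For 6 of 11 columns the sample's own file was the best match (0.990 to 0.995). Columns of 2i/LIF replicates 1 and 4, and of KOSR/LIF replicates 1 and 2, matched each other's files best (0.991 to 0.995, own files 0.963 to 0.979). The 4 swapped columns lie within a medium, so those samples keep their group. The scanner file of KOSR/LIF replicate 3 was the best match of no column, so its medium rests on its label alone. Results below come from the scanner files, with the table and the fit without KOSR/LIF replicate 3 beside them.

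All 75 member probes were well above background on all 11 arrays, and none was flagged as saturated. The SD of member levels was 0.71 to 0.77 on first-day arrays, 0.73 and 1 on second-day arrays and 0.52 to 0.59 on third-day arrays. Whether bright signals were compressed below saturation was not tested. Levels are log2 of intensity relative to each array's 75th percentile, so RNA per cell was not measured. In these bulk samples fewer cells of a type and less RNA per cell cannot be told apart. The median member level was 9.03, 9.02 and 8.23 in serum/LIF replicates 1 to 3. It was 8.35, 8.55, 9.06, 9.06 and 8.36 in 2i/LIF replicates 1 to 5, and 8.70, 8.65 and 8.42 in KOSR/LIF. The media overlapped, and much of the split followed the scan day. Within the first day, however, KOSR/LIF (8.70 and 8.65) lay below serum/LIF and 2i/LIF (9.02 to 9.06). The third day held no KOSR/LIF array. Arrays of the first day lay at 8.65 to 9.06, those of the second at 8.42 and 8.55, and those of the third at 8.23 to 8.36. The third day's arrays also had the highest 75th percentiles (432 to 538), to which the levels are relative. Under quantile scaling the spread of the 11 medians shrank from 0.83 to 0.29, or 0.15 without KOSR/LIF replicate 3. In the deposited table, whose 11 columns had the same maximum (194434.7), it was 0.14 (16.70 to 16.84). Quantile scaling gives equal ranks equal values, and the members were among the brightest probes. A shift shared by all members would thus be reduced under it, and may be in that table.

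**Figure D1:**
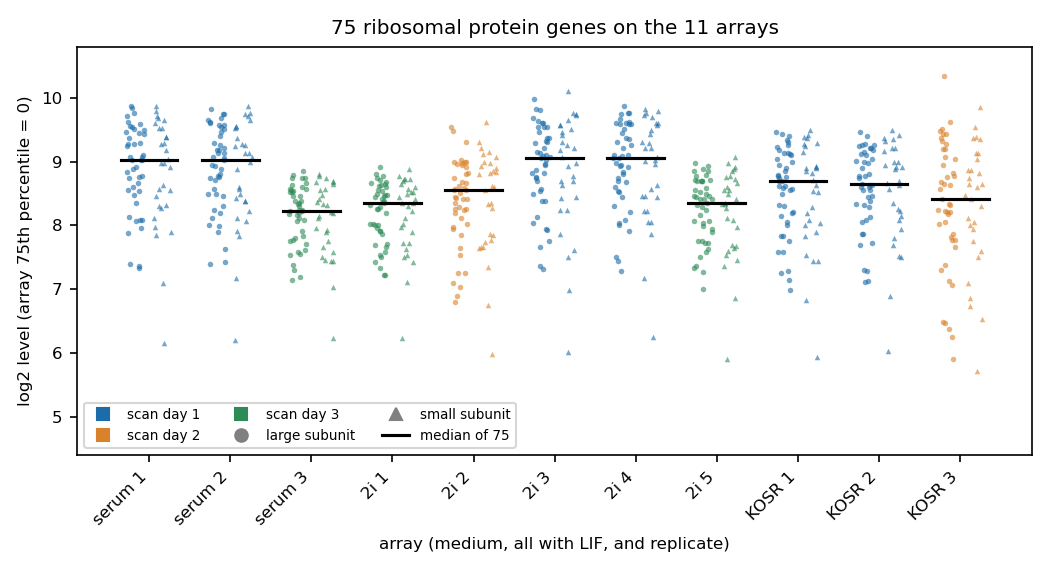
Log2 level (array 75th percentile set to 0) of the 75 ribosomal protein genes on each of the 11 arrays, large subunit as circles and small subunit as triangles, coloured by scan day, with the median as a black bar. Medians of third-day arrays, none of them KOSR/LIF, lie at 8.23 to 8.36. Medians of first-day arrays lie at 8.7 and 8.65 in KOSR/LIF and at 9.02 to 9.06 in serum/LIF and 2i/LIF.

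Both subunits moved together across arrays. The large subunit median minus the small subunit median was between -0.04 and 0.06 on the first-day and third-day arrays. It was -0.17 on 2i/LIF replicate 2 and -0.22 on KOSR/LIF replicate 3, the arrays of the second scan day.

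In 2i/LIF against serum/LIF, 0 of 75 members passed (limma, adjusted p under 0.05 over all genes tested), while 16.7% of all genes tested passed (2722 genes, 1098 higher and 1624 lower). At an unadjusted p under 0.05 the count was also 0, against 4397 of all 16279 genes tested. The median log2 change was -0.11, with 70 of 75 members below 0, against a median of 0.03 over all genes tested. That direction did not hold within the first scan day, where 43 members were above and 32 below 0 (median 0.01), nor with the scan day as a block (33 above, 42 below, median -0.01). Without the block the median was -0.12 for the large and -0.10 for the small subunit. Single changes ran from -0.26 to 0.52. The 95% interval stayed within 2-fold either way for 72 of the 75 members, and the median interval reached 1.54-fold either side of the estimate, so changes of that size were not detectable gene by gene. In the deposited table, where arrays were closer in level, the changes ran from -0.20 to 0.54, and the median interval reached 1.23-fold.

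The highest members in this comparison were Rps24 (0.52 ± 0.26 SE, adjusted p = 0.244 by limma), Rps15 (0.17), Rpl31 (0.05), Rps15a (0.03) and Rps6 (0.02). Rps24 and Rps15 encode small subunit proteins, Rps15 in the subunit's head, and Rpl31 lies near the tunnel exit. Rps6 is the substrate of the S6 kinases below mTOR. The lowest were Rps26 (-0.26), Rpl7a (-0.26), Rpl21 (-0.23), Rpl23 (-0.23) and Rpl11 (-0.23). Rps26 lies at the mRNA exit of the small subunit, and Rpl11 joins Rpl5 and 5S rRNA in a particle that can also bind Mdm2. Rpl11 was at 9.46, 9.3 and 8.35 in serum/LIF and at 8.48, 8.41, 9.22, 9.35 and 8.56 in 2i/LIF. Its low values were those of serum/LIF replicate 3 and 2i/LIF replicates 1, 2 and 5, so the media overlapped, and the 4 arrays of the first scan day were the highest.

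In KOSR/LIF against serum/LIF, 0 of 75 members passed in limma, against 4.58% of all genes tested (745 genes, 386 higher and 359 lower). The count at an unadjusted p under 0.05 was also 0, against 3042 of all 16279 genes tested. The median log2 change was -0.17, at -0.19 for the large and -0.14 for the small subunit, against -0.03 over all genes tested. Changes ran from -0.81 to 0.32, and 55 of 75 intervals stayed within 2-fold either way. Without KOSR/LIF replicate 3 the median was -0.09 and the range -0.41 to 0.46. In the deposited table the median was -0.01 and the range -0.19 to 0.47, and all 75 intervals stayed within 2-fold.

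The lowest members were Rps2 (-0.81), Rpl36a (-0.68), Rpl5 (-0.62), Rpl28 (-0.62) and Rps19 (-0.58). Rps2 encodes a small subunit protein at the mRNA entry. Its level was 8.98, 9.07 and 8.32 in serum/LIF and 8.54, 8.67 and 6.74 in KOSR/LIF. The one low value was that of KOSR/LIF replicate 3, and the other KOSR/LIF arrays lay within the range of serum/LIF. Without that array the Rps2 change was -0.19 (95% interval -0.87 to 0.49), and in the deposited table -0.12 (-0.45 to 0.20). A dimmer Rps2 probe, A_55_P2070347, was at 8.3, 8.64 and 7.63 in serum/LIF and 8.14, 8.26 and 8.87 in KOSR/LIF, a change of 0.24. On it KOSR/LIF replicate 3 was the highest array, so the Rps2 probes disagreed in direction. Rpl5, the partner of Rpl11 in the 5S particle, was at 7.33, 7.4 and 7.14 in serum/LIF and at 6.99, 7.11 and 5.90 in KOSR/LIF. All 3 KOSR/LIF arrays were lower than all 3 serum/LIF arrays, the third by far the most, and without it the Rpl5 change was -0.24. Rps19, the gene most often mutated in Diamond-Blackfan anaemia, and Rpl28 changed by -0.22 and -0.16 without that array. Rpl36a, on the X chromosome, changed by -0.41.

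At the upper end stood Rps24 (0.32), Rps15 (0.26), Rpl41 (0.26), Rpl29 (0.17) and Rps12 (0.13), none past the test. Rpl41 encodes the smallest ribosomal protein. It was at 9.84, 9.82 and 8.85 in serum/LIF and 9.47, 9.46 and 10.35 in KOSR/LIF. Here KOSR/LIF replicate 3 was the highest array, so this array lay at the end of the range in both directions.

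In 2i/LIF against KOSR/LIF, 0 of 75 members passed in limma, against 14.7% of all genes tested (2388 genes, 969 higher and 1419 lower). At an unadjusted p under 0.05 the count was 1, Rpl4, against 4427 of all 16279 genes tested. The median log2 change was 0.03, with 41 members above and 34 below 0, against 0.02 over all genes tested. It was 0.03 for the large and 0.02 for the small subunit. Changes ran from -0.33 to 0.71, and 68 of 75 intervals stayed within 2-fold.

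Rpl4, a large subunit protein that lines the exit tunnel, was 0.50 ± 0.23 higher (adjusted p = 0.181 by limma). It was at 7.33, 7.25, 7.67, 7.29 and 7.37 in 2i/LIF and at 7.15, 7.13 and 6.37 in KOSR/LIF. The groups did not overlap, but KOSR/LIF replicate 3 lay far below its fellows, and without it the Rpl4 difference was 0.24. The members highest in 2i/LIF beside Rpl4 were Rps2 (0.71), Rpl5 (0.51), Rpl36a (0.51) and Rpl28 (0.42). The lowest were Rpl41 (-0.33), Rpl29 (-0.28), Rps12 (-0.23), Rpl36 (-0.22) and Rpl10 (-0.21). Both comparisons with KOSR/LIF share its 3 arrays. Without KOSR/LIF replicate 3 the range over all members was -0.23 to 0.24. In the deposited table it was -0.24 to 0.12, and all 75 intervals stayed within 2-fold.

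**Figure D2:**
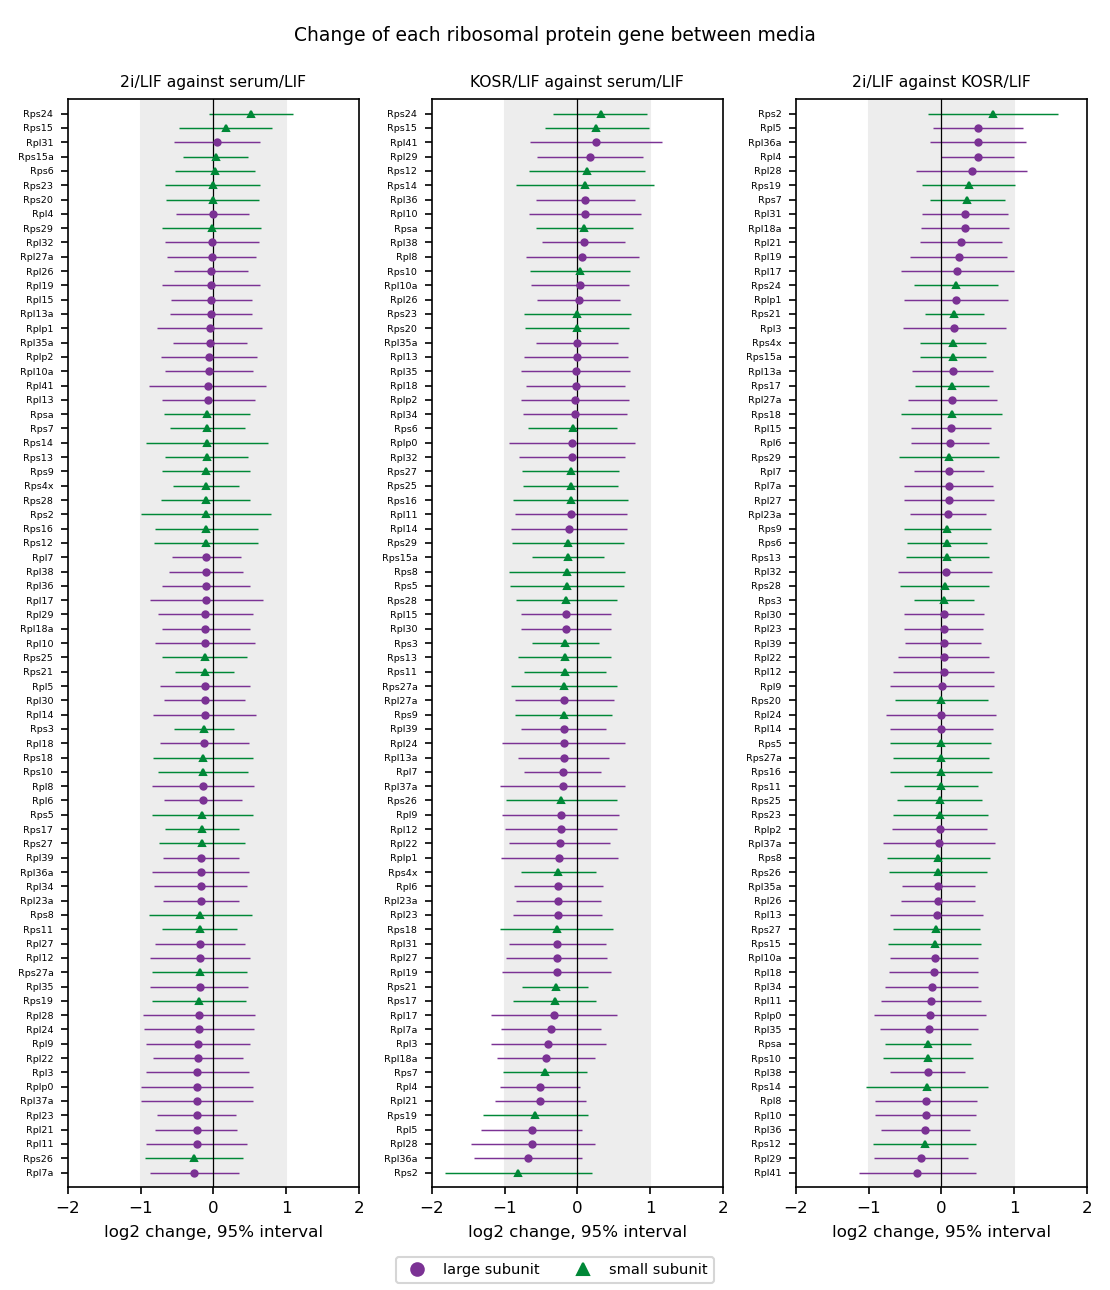
Log2 change of each of the 75 members with its 95% interval in the 3 comparisons, sorted by size, large subunit as circles and small subunit as triangles, with changes under 2-fold shaded. No member passed the adjusted threshold. Rps24 is highest in the first 2 panels, and Rps2 is lowest in the second and highest in the third.

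**Figure D3:**
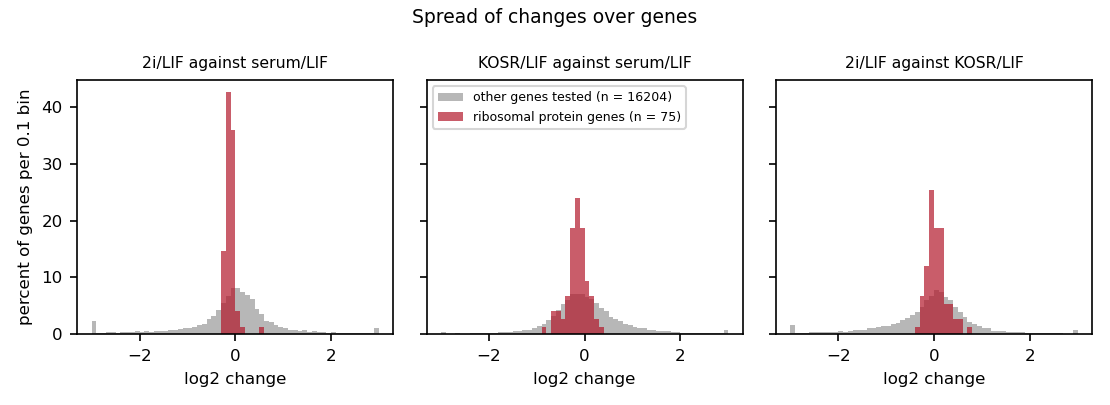
Percent of genes in each bin of log2 change for the 75 members (red) and the other 16204 genes tested (grey) in the 3 comparisons, with values beyond 3 drawn in the end bins. The members lie between -0.26 and 0.52, between -0.81 and 0.32 and between -0.33 and 0.71, inside the wider spread of the other genes.

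Because scan days differed in level, members were also compared with the scan day as a block and within the first scan day, which holds 2 arrays of each medium. With the block, 1 of 75 members passed in 2i/LIF against serum/LIF (Rps24, 0.62, adjusted p = 0.0401 by limma), against 20.8% of all genes. Another passed in 2i/LIF against KOSR/LIF (Rpl36a, 0.64, adjusted p = 0.0285 by limma), against 17.3% of all genes. Within the first day 1 of 75 passed in 2i/LIF against serum/LIF (Rps24, 0.87, adjusted p = 0.0343 by limma), against 14.6% of all genes. Rpl36a did not pass there (0.60, adjusted p = 0.099 by limma). In the deposited table its group means were 15.64 in 2i/LIF and 15.54 in KOSR/LIF.

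Within the first day the median member changed by -0.33 in KOSR/LIF against serum/LIF and by 0.35 in 2i/LIF against KOSR/LIF. Unadjusted p lay under 0.05 for 18 members in the first of these, beside 22.1% of all genes, and for 20 members in the second, beside 28.4% of all genes. None passed after adjustment. The KOSR/LIF arrays of that day had 75th percentiles of 230 and 268 against 176 to 227 for the other 4. Their member medians under quantile scaling, 16.61 and 16.57, lay within the 16.57 to 16.62 of the others. The offset of KOSR/LIF on that day was thus seen under the percentile scaling and not under quantile scaling. Quantile scaling could hardly have shown it, since it gives the brightest probes near equal values on every array. Whether the offset lies in the RNA or in the scaling was not tested.

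Rps24 was the one member that passed in 3 other settings of 2i/LIF against serum/LIF. It was at 8.46, 8.57 and 8.33 in serum/LIF, at 8.52, 9.0, 9.27, 9.50 and 8.56 in 2i/LIF and at 8.83, 8.99 and 8.48 in KOSR/LIF. Serum/LIF and 2i/LIF overlapped, since 2i/LIF replicates 1 and 5, both of the third scan day, lay near the serum/LIF arrays of the first. Within the third day, serum/LIF replicate 3 at 8.33 was below 8.52 and 8.56. In the deposited table Rps24 was at 16.30, 16.36 and 16.86 in serum/LIF and at 16.91 to 17.16 in 2i/LIF, with no overlap. There it was the 1 of 75 members that passed (0.54, adjusted p = 0.0324 by limma), against 21.4% of all genes, and it stood at 16.90 to 17.04 in KOSR/LIF (0.47 above serum/LIF, adjusted p = 0.179 by limma).

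Rps24 pre-mRNA is known to be spliced in several ways near its 3′ end, and the array held 3 probes assigned to 3 RefSeq transcript variants. The probe above (A_55_P1955243) stood for the gene because its mean over the 11 arrays was the highest. Its group means were 8.45, 8.97 and 8.77 in serum/LIF, 2i/LIF and KOSR/LIF, against 8.87, 8.79 and 8.52 for A_55_P2032600. It was thus the dimmer of these in serum/LIF and the brighter in 2i/LIF and KOSR/LIF, so the choice of probe rested on the values compared. With the mean of all Rps24 probes the change in 2i/LIF against serum/LIF was 0.12 (adjusted p = 0.819 by limma). The other probes, A_55_P1993880 and A_55_P2032600, each changed by -0.08 in 2i/LIF against serum/LIF, and by -0.37 and -0.34 in KOSR/LIF against serum/LIF. Only the first probe was thus higher in 2i/LIF, and none of the 3 passed when each was tested on its own. The change of the first probe exceeded those of the others by 0.60 (exact permutation p = 0.0714) and 0.59 (exact permutation p = 0.0357) in 2i/LIF against serum/LIF. It exceeded them by 0.69 and 0.66 (exact permutation p = 0.1 for each) in KOSR/LIF against serum/LIF. The tests were two-sided. Over the 6 such tests the adjusted p of these 4 was 0.15. The smallest exact permutation p the design allows was 0.0179 in 2i/LIF against serum/LIF. In KOSR/LIF against serum/LIF, with 3 arrays each, 0.1 is the smallest possible, so those tests could not pass the threshold. These probes were compared after the values of Rps24 had been seen.

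**Figure D4:**
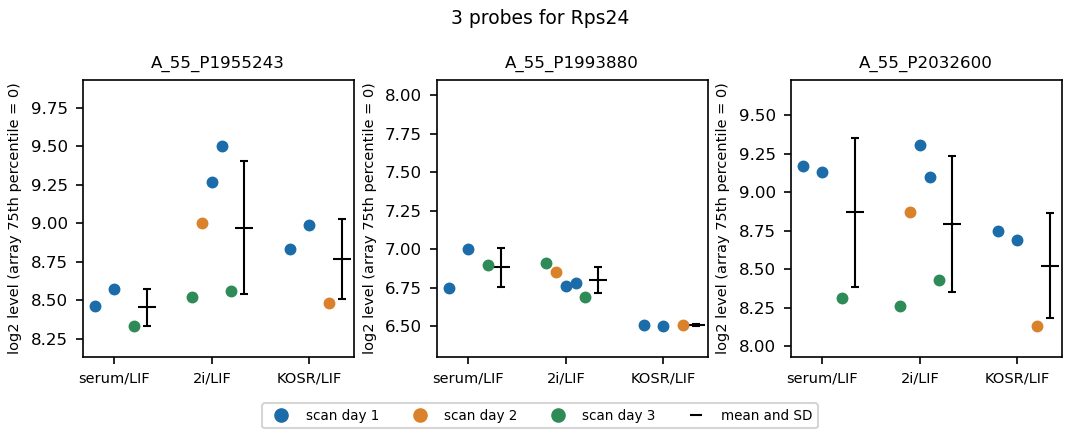
Log2 level (array 75th percentile set to 0) of the 3 Rps24 probes by medium, 1 point per array coloured by scan day, with mean and SD, each panel spanning the same range of log2 units. The first probe is higher in 2i/LIF (8.52 to 9.50) than in serum/LIF (8.33 to 8.57) on average, with overlap, and the other 2 are not.

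Several probes were on the array for 51 of the 75 members, and 160 member probes passed the filter. Tested singly, 3 of the 160 passed in 2i/LIF against serum/LIF, all lower, against 15.9% of all 21274 named probes. They were dimmer probes for Rpl15 (-0.89), Rpl14 (-0.92) and Rpl23 (-0.76). In KOSR/LIF against serum/LIF 2 passed, both lower, against 4.13% of named probes, the same Rpl23 probe (-0.99) and a dim one for Rps15a (-1.46). In 2i/LIF against KOSR/LIF none passed in limma, with 2 at an unadjusted p under 0.05. The share of named probes is not at hand for this comparison. Of genes tested, 14.7% passed in it, and 4427 of 16279 had an unadjusted p under 0.05. The brightest probes of Rpl15, Rpl14, Rpl23 and Rps15a gave between -0.27 and -0.03 in the comparisons where a dimmer probe passed. They did not pass, so probes of 1 gene disagreed. For Rpl15, a large subunit protein, the dim probe was at 4.94, 5.35 and 4.86 in serum/LIF and 4.37, 3.93, 4.20, 4.27 and 4.05 in 2i/LIF. These did not overlap, while the bright Rpl15 probe was at 8.24 to 8.88 and 8.36 to 9.07. Which transcript each probe reads was not tested.

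By role, the stalk proteins Rplp0, Rplp1, Rplp2 and Rpl12, which recruit elongation factors, had median changes of -0.12, -0.14 and 0.00 in the 3 comparisons in the order above. Rplp0, often used as a reference gene, was at 9.87, 9.75 and 8.75 in serum/LIF, 8.56, 9.31, 9.81, 9.75 and 8.72 in 2i/LIF and 9.44, 9.28 and 9.43 in KOSR/LIF. The media overlapped, and the 3 lowest Rplp0 arrays were those of the third scan day. The 7 proteins listed around the tunnel exit had medians of -0.10, -0.27 and 0.09. The 14 of the small subunit head had -0.12, -0.13 and 0.00, and the 9 best known Diamond-Blackfan anaemia genes had -0.14, -0.22 and 0.15.

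The 4 members on the X chromosome (Rpl10, Rpl36a, Rpl39 and Rps4x) had medians of -0.14, -0.23 and 0.09, and none passed. Highest mean probe signals were those of Rpl41, Rps14 and Rps20, and lowest those of Rps21, Rps3 and Rpl5, but signals of different probes give no order of abundance. Rps21 was at 5.72 to 6.25 and Rps20 at 8.74 to 9.75 over the 11 arrays.

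Fau encodes the ribosomal protein S30 as a fusion with a ubiquitin-like sequence and lies outside the symbol rule. Fau changed by -0.05, 0.11 and -0.16 in the 3 comparisons and did not pass in any.

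Some paralogs of ribosomal protein genes differed between media. Of 10 listed, 8 were tested, and 3 rose in 2i/LIF against serum/LIF, 2 rose in KOSR/LIF against serum/LIF and 1 was higher in 2i/LIF than in KOSR/LIF. Over all genes tested 16.7%, 4.58% and 14.7% passed in either direction, so the last count is no more than the background gives. Rpl10l is an intronless copy of the X-linked Rpl10, best known from male germ cells. It was at 4.26, 3.75 and 4.21 in serum/LIF, 6.78, 6.0, 6.43, 6.23 and 6.77 in 2i/LIF and 5.35, 4.68 and 4.82 in KOSR/LIF. All 2i/LIF arrays were highest and all serum/LIF arrays lowest, with no overlap between any of the media, and scan days were mixed within each. Rpl10l was 2.37 ± 0.26 higher in 2i/LIF than in serum/LIF (adjusted p = 9.96e-05 by limma) and 1.49 ± 0.26 higher than in KOSR/LIF (adjusted p = 0.00259). Its 0.88 ± 0.29 in KOSR/LIF against serum/LIF did not pass (adjusted p = 0.122 by limma), but passed with the scan day as a block (1.1, adjusted p = 0.036) and in the deposited table (1.25, adjusted p = 0.0484). A second Rpl10l probe rose by 2.57 and 2.00 in the first 2 of these. The parent Rpl10 changed by -0.11 and -0.21 there.

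Rpl39l, a copy of the X-linked Rpl39 also known from the male germ line, was at 2.88, 2.87 and 2.83 in serum/LIF. It was at 5.19, 3.67, 4.99, 4.31 and 5.18 in 2i/LIF and at 4.84, 4.78 and 4.44 in KOSR/LIF. Serum/LIF lay below every other array, while 2i/LIF and KOSR/LIF overlapped. Rpl39l was 1.81 ± 0.34 higher in 2i/LIF (adjusted p = 0.00297 by limma) and 1.83 ± 0.38 higher in KOSR/LIF (adjusted p = 0.0206) than in serum/LIF. Between 2i/LIF and KOSR/LIF its difference was -0.02 (95% interval -0.76 to 0.72). The Rpl39l call in KOSR/LIF was kept in 21 of 30 alternatives (adjusted p up to 0.135 by limma). It was lost under median scaling, normexp background correction, the replicate block and scaling to the members' median. The same call was lost without any one of serum/LIF replicates 1, 2 or 3 or KOSR/LIF replicates 1 or 2. The parent Rpl39 changed by -0.17 and -0.19 against serum/LIF. How far a paralog's probe also binds other transcripts was not tested.

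Rpl3l, a muscle paralog of Rpl3, passed at low signal, 1.24 higher in 2i/LIF (adjusted p = 0.0276 by limma) and 1.68 higher in KOSR/LIF (adjusted p = 0.031) than in serum/LIF. It was at -3.71, -2.06 and -2.81 in serum/LIF and at -2.08 to -1.14 in 2i/LIF, so these overlapped. The Rpl3l calls were kept in 18 of 31 and 14 of 30 alternatives. Both were lost under median scaling and without serum/LIF replicate 1 or 3. The first was also lost without 2i/LIF replicate 2 or 3, and the second without any one KOSR/LIF array. The largest adjusted p of the first over the alternatives was 0.288, and of the second 0.152. The other paralogs gave 0.39 (Rpl7l1), -0.03 (Rpl22l1), 0.13 (Rpl36al), -0.07 (Rps27l) and 0.26 (Rps4l) in 2i/LIF against serum/LIF, none past the test.

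**Figure D5:**
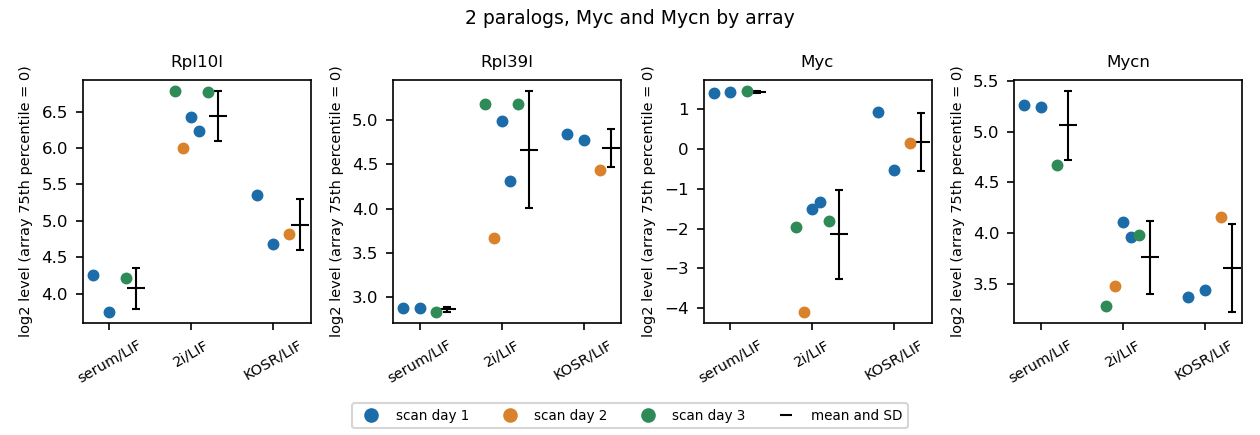
Log2 level (array 75th percentile set to 0) of Rpl10l, Rpl39l, Myc and Mycn by medium, 1 point per array coloured by scan day, with mean and SD. Rpl10l is highest in 2i/LIF (6.0 to 6.78), Rpl39l is lowest in serum/LIF (2.83 to 2.88), Myc is lowest in 2i/LIF (-4.09 to -1.34) and Mycn is highest in serum/LIF (4.67 to 5.27).

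Of 20 listed regulators of ribosomal protein synthesis, 3, 1 and 3 passed in the 3 comparisons. Over all genes tested 16.7%, 4.58% and 14.7% passed, so these counts are near the background share. Among the 20, Myc changed most in both comparisons of 2i/LIF. It was at 1.41, 1.43 and 1.45 in serum/LIF, -1.95, -4.09, -1.52, -1.34 and -1.80 in 2i/LIF and 0.92, -0.53 and 0.14 in KOSR/LIF, with no overlap between media. Its probe was not well above background on 2i/LIF replicate 2, the lowest array, so the size of its fall is uncertain. Over the alternatives the Myc change in 2i/LIF against serum/LIF ran from -3.95 to -2.56. Myc fell by 3.57 ± 0.55 in 2i/LIF against serum/LIF (adjusted p = 0.000918 by limma) and by 2.31 ± 0.55 against KOSR/LIF (adjusted p = 0.0153). That second Myc call was lost without KOSR/LIF replicate 1 or within the first scan day (adjusted p up to 0.0885). Mycn fell by 1.30 in 2i/LIF (adjusted p = 0.00736 by limma) and by 1.41 in KOSR/LIF (adjusted p = 0.0292), both against serum/LIF. The Mycn call in KOSR/LIF was kept in 20 of 30 alternatives. It was lost, among others, under quantile and cyclic loess scaling, and without serum/LIF replicate 1 or 2 or KOSR/LIF replicate 1 or 2.

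Mlst8, a subunit of the mTOR complexes, rose by 0.87 in 2i/LIF against serum/LIF (adjusted p = 0.0201 by limma). The Mlst8 call was kept in 26 of 31 alternatives. Its losses included median scaling, normexp background correction, the replicate block and leaving out serum/LIF replicate 3. Mxd4, a Max partner that opposes Myc, changed by -1.58 in 2i/LIF against KOSR/LIF (adjusted p = 0.003 by limma). That Mxd4 call was kept in 30 of 30 alternatives. Mycl, another Myc family gene, was 1.37 higher (adjusted p = 0.00481 by limma). The Mycl call was lost in 5 of 29 alternatives: normexp background correction (0.43, adjusted p = 0.324), the deposited table (0.69), the replicate block, the first scan day alone and scaling to the members' median. The remaining regulators, Mtor and Larp1 among them, did not pass in any comparison.

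Genes that share the TOP tract or build the ribosome did not pass either, with 1 exception. Of 26 tested translation factors and other TOP genes, 0 passed in any comparison (limma; 0, 3 and 2 at an unadjusted p under 0.05), with medians of -0.08, -0.31 and 0.20. Beside these and the lists below, 16.7%, 4.58% and 14.7% of all genes tested passed. At an unadjusted p under 0.05 there were 4397, 3042 and 4427 of 16279. Of 60 ribosome biogenesis genes, 1 fell in 2i/LIF against serum/LIF, with medians of -0.15, -0.29 and 0.18. That was Ebna1bp2, a nucleolar assembly factor of the large subunit, which fell by 0.85 (adjusted p = 0.0454 by limma), a call kept in 12 of 31 alternatives. It was lost without any one serum/LIF array, 2i/LIF replicate 1, 3 or 5, or KOSR/LIF replicate 1 or 2. Of 11 tested RNA polymerase I genes, 0 passed (limma; 0, 1 and 0 at an unadjusted p under 0.05), with medians of -0.06, -0.37 and 0.26. The negative medians in KOSR/LIF stand beside KOSR/LIF replicate 3, whose part in them was not tested gene by gene. Among 77 mitochondrial ribosomal protein genes, a list added after the data were seen, 1 fell in 2i/LIF against serum/LIF (Mrpl23, -0.63, adjusted p = 0.0479 by limma) and none passed in the other comparisons (2 and 4 at an unadjusted p under 0.05). The Mrpl23 call was kept in 11 of 31 alternatives, and was lost without any one serum/LIF array, 2i/LIF replicate 1, 2, 3 or 5, or KOSR/LIF replicate 1 or 2.

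Markers of other cell types were also read. Of 7 fibroblast markers tested (Postn was not), 4 fell in 2i/LIF against serum/LIF (median -2.41, beside 16.7% of all genes called). In KOSR/LIF against serum/LIF 1 was higher (median 0.44, beside 4.58%), and 4 were lower in 2i/LIF than in KOSR/LIF (median -2.61, beside 14.7%). Dcn and Twist2 were not well above background on any 2i/LIF array, so no size is given for them. Both passed the filter only through the other media, so their values in 2i/LIF carry no support, although they enter these counts and medians. Lum, well above background on only 3 arrays, went the other way, with means of -6.3 in serum/LIF and -5.54 in 2i/LIF. Col1a2, a fibrillar collagen gene, was well above background on all 11 arrays and fell by 2.41 in 2i/LIF against serum/LIF (adjusted p = 0.00122 by limma).

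Of 4 blood cell markers 2 were tested, beside 16.7%, 4.58% and 14.7% of all genes called in the 3 comparisons. Of the 2, 1 was higher, 0 passed and 1 was higher in these (medians 1.17, 0.57 and 0.60). The one called was Laptm5, a lysosomal membrane protein gene of blood cells, at 0.04, 0.03 and -0.36 in serum/LIF and 2.36, 1.26, 1.03, 1.63 and 2.21 in 2i/LIF. It was at -0.02, -0.49 and 0.28 in KOSR/LIF, so 2i/LIF lay above both other media. Laptm5 was 1.79 higher in 2i/LIF than in serum/LIF (adjusted p = 0.00262 by limma), and Ptprc, the pan-leukocyte marker, did not pass (0.55). All 8 ES cell markers were measured, with medians of -0.04, -0.90 and 0.87. Of these 1 was lower in 2i/LIF against serum/LIF (Tdgf1, beside 16.7% of all genes called). Another was lower in KOSR/LIF against serum/LIF (Sox2, beside 4.58%), and 4 were higher in 2i/LIF than in KOSR/LIF (beside 14.7%). The part of other cell types in the paralog and Myc differences was not tested.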

How the data were processed

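RNA of 11 samples was labelled with 1 dye, Cy3, and hybridised to Agilent arrays, per the labels' protocols. The deposited scanner files give linear intensities after background subtraction in Feature Extraction 11.0.1.1 (source: file headers), and their flags mark probes well above background or saturated. The deposited value table also holds intensities, and no source used here says how it was made. Its 11 columns had the same maximum (194434.7) and medians of 46.5 to 47.7, as columns brought to a common distribution would. Spots without outlier flags were averaged to 55681 probes, and 27642 were named by RefSeq accession (names from GRCm38.p6). Each array's 75th percentile was subtracted from log2 values. Probes well above background on at least 3 arrays entered, and the probe with the highest mean level stood for its gene. One linear model (lmFit and eBayes, limma 3.58.1, R 4.3.3, no covariates) gave 3 two-sided comparisons, with Benjamini-Hochberg adjustment over 16279 genes and a threshold of 0.05. Degrees of freedom were 8 (residual) and 3.52 (prior), and precision is limited by the number of arrays. The fit was tested on simulated data. No probe was saturated, so leaving out saturated probes changed nothing. The planned normexp background correction used the median signal with an offset of 50, because these files hold no mean signal column. Named genes are the 5 highest and 5 lowest members per comparison, Fau, the paralogs, Myc, Mycn, and up to 4 passing genes per other list; 1 further gene is not reported here. Members and lists were chosen with earlier results of these data known. Groups come from sample titles. Same-numbered samples of different media deviated together with r over 0.1 in 2 of 9 pairs (-0.20 to 0.18), so numbers were not used as pairs.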

Additional observations from a re-analysis of the deposited data

Results flagged for a closer look

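Among 42 named genes, 4 had 1 of the 5 2i/LIF arrays far from the other 4, by a gap of more than 0.71 of the group's range. Chance gives about 1 in 20. Rpl4 was at 7.67 on 2i/LIF replicate 3, with the others at 7.25 to 7.37. Rps27l was at 7.66 on 2i/LIF replicate 4, with the others at 7.17 to 7.26. Myc was at -4.09 on 2i/LIF replicate 2, with the others at -1.95 to -1.34, and Ebna1bp2 was at 4.83 on the same array, with the others at 5.69 to 5.88.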

How the results depend on the processing

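The count of members past the threshold was 0 in 28 of 32 alternatives of 2i/LIF against serum/LIF, in 30 of 31 of KOSR/LIF against serum/LIF and in 30 of 31 of 2i/LIF against KOSR/LIF. The exceptions were 1 member (Rps24) in the first with the deposited value table, with the scan day block and within the first scan day, and 1 member (Rpl36a) in the last with the scan day block. When every probe was tested on its own, an alternative added after seeing the data, 3 and 2 probes passed in the first and second comparison. Leaving out each array in turn gave counts from 0 to 0 in all 3 comparisons. The medians then ran from -0.36 to 0.01, from -0.41 to -0.03 and from -0.07 to 0.12. Over all alternatives the medians ran from -0.36 to 0.10, -0.54 to 0.02 and -0.11 to 0.35, so no direction of the median held throughout. The median of -0.54 in KOSR/LIF against serum/LIF came from median scaling, which moved the median of all genes to -0.41. With the replicate block the counts were 0, 0 and 0 and the medians -0.14, -0.17 and -0.01, and since the numbers do not pair the samples this carries no more weight. Scaling to the members' own median, added after seeing the data, called 0 members as well. Rpl10l and Rpl39l kept their calls in 2i/LIF against serum/LIF in 31 of 31 alternatives, Myc in 30 of 30 and Mycn in 30 of 31. Rpl10l kept its call against KOSR/LIF in 29 of 30 and lost it within the first scan day (adjusted p = 0.0503). Depth here is signal over background, and it limits Rpl3l, Mycl and Mxd4, whose signals were low. It also limits Myc in 2i/LIF, where levels were -4.09 to -1.34.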
